A study of Rattus norvegicus with 10 samples.

Results

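Vasopressin, oxytocin and the 4 receptors through which they act were read on 7 of the 31042 non-control probe sets of a rat expression array. The members were taken by annotation, as every probe set that the platform table gives to Avp, Oxt, Avpr1a, Avpr1b, Avpr2 or Oxtr alone. These are 6 of the 14217 genes named alone on at least 1 probe set, with 2 probe sets for Avpr2 and 1 for each of the other 5 genes. An additional probe set, 1369240_a_at, carries the symbol Avpr1b under 2 gene identifiers and is described beside the 7 without being counted among them. The study compared the hypothalamic paraventricular nucleus of male Sprague Dawley rats aged 10 to 12 weeks after 3 days of dehydration with that of control rats. Each group had 5 pools, every pool held tissue of 5 animals, and each pool was read on an array of its own (Affymetrix Rat Genome 230 2.0), which made 10 arrays from 50 animals. Sample labels and the series title give the paraventricular nucleus, while the design text gives the supraoptic nucleus, and the sample labels were used. The titles carry numbers that do not mix the groups and run on within each group. Control replicate 5 is the exception, with a number far beyond those of the other controls. No label says what the numbers mark, so any processing batch they stand for and the group cannot be told apart.

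Vasopressin and oxytocin are nonapeptides cut from larger precursors in magnocellular neurons, which send their axons to the posterior pituitary and release both hormones into the blood. Vasopressin makes the kidney retain water through the V2 receptor (Avpr2) and constricts vessels through the V1a receptor (Avpr1a), and oxytocin acts on uterus, mammary gland and brain through its own receptor (Oxtr). A rise of plasma osmolality is the main stimulus to vasopressin neurons, and in the rat it also excites oxytocin neurons.

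The hormone genes are neighbours on rat chromosome 3, with 0 protein-coding genes between them, and are transcribed towards each other from opposite strands. The 250 bases before each start are shown because these genes are compared with each other, and because the motifs in them differ. They were taken from RefSeq (build GRCr8, chr3:138248523-138248772 on the minus strand for Avp and chr3:138235504-138235753 on the plus strand for Oxt), and are written from 5′ to 3′. Capitals mark matches on either strand to the half-site of the cyclic AMP response element (TGACG), the nuclear receptor half-site (AGGTCA) and the E-box (CANNTG).
Avp: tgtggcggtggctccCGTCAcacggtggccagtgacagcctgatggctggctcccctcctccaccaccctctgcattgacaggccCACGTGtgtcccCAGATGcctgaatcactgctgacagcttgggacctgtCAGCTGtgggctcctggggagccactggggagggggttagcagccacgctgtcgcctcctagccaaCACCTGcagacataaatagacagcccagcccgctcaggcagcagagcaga
Oxt: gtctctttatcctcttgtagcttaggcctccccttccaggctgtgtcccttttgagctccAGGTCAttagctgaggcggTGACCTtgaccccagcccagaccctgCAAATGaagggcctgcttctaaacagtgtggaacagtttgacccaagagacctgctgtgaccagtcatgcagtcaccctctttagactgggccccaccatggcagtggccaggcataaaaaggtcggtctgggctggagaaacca
The Avp window held 1 cyclic AMP half-site, 235 bases before the start, and 4 E-boxes at 165, 153, 116 and 50 bases. It held 0 nuclear receptor half-sites. The Oxt window held 2 nuclear receptor half-sites, 190 and 171 bases before the start, 1 E-box at 145 bases and 0 cyclic AMP half-sites. No match overlapped another (0 pairs). Over all 33469 windows of the same length, 18.2% held the cyclic AMP half-site, 14.1% the nuclear receptor half-site and 65.5% an E-box, so each of these short motifs is common. A match in these letters is a description and not a binding site.

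Both hormone genes lay near the top of the signal range on every array, and both had higher mean signals in dehydrated pools. Avp, the precursor of vasopressin and its carrier neurophysin, (probe set 1387317_at) had signals of 5164, 3931, 5030, 5698 and 4960 in the dehydrated pools, replicates 1 to 5. In the control pools its signals were 3583, 2853, 2953, 3934 and 4334. Of the 5 dehydrated pools 4 lay above every control pool, while dehydrated replicate 2 lay among the controls, 2 of which were above it. Mean signals were 4957 ± 642 in dehydrated and 3531 ± 633 in control pools (SD, n = 5 each). On the log2(signal + 3.72) scale the difference was 0.50 ± 0.11 (standard error), a 1.41-fold ratio with a 95% interval of 0.27 to 0.73 in log2. It missed the threshold of 0.05 after Benjamini-Hochberg adjustment over 18629 probe sets (limma, adjusted p = 0.0504). By p-value Avp stood at place 111 of these, behind the 108 probe sets that passed.

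Oxt, the precursor of oxytocin and its neurophysin (probe set 1368312_at), showed a smaller difference. Its signals were 5181, 3953, 4580, 5499 and 5091 in the dehydrated pools and 3875, 4000, 3631, 4317 and 4626 in the control pools. The groups overlapped more than for Avp, with 3 dehydrated pools above every control and 3 controls above the lowest dehydrated pool. Mean signals were 4861 ± 605 in dehydrated and 4090 ± 389 in control pools (SD, n = 5 each). In log2 that was 0.24 ± 0.08 higher, with a 95% interval of 0.07 to 0.42 (limma, adjusted p = 0.218). Neither hormone gene was thus among the 0.58% of tested probe sets that passed (108 of 18629). Both were among the 12.7% with an unadjusted p under 0.05, and neither among the 3.36% whose groups did not overlap. In tissue pools, fewer neurons of a type and less transcript per neuron cannot be told apart.

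**Figure D1:**
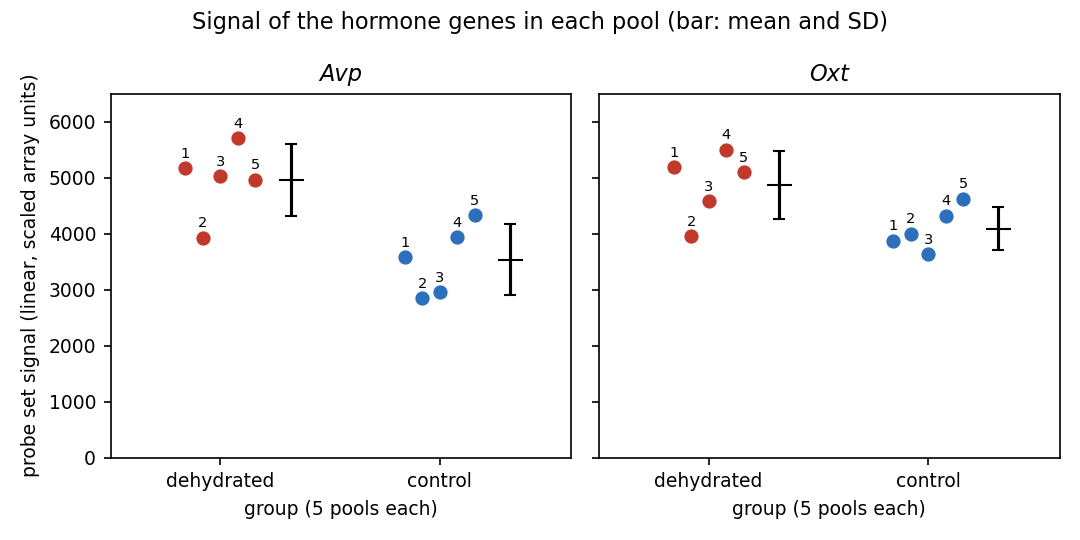
Probe set signal (linear, scaled array units) of Avp and Oxt in the 5 dehydrated and the 5 control pools, with replicate numbers beside the points and a bar for mean and SD. For Avp 4 dehydrated pools lie above all controls and replicate 2 at 3931 among them, while for Oxt 3 dehydrated pools do so.

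The call on Avp turned on single pools. Dehydrated replicate 2 had the lowest signal of its group for both hormones, and control replicate 5 the highest of its group. Without dehydrated replicate 2 the log2 difference of Avp was 0.58 (limma, adjusted p = 0.0172), and without control replicate 5 it was 0.58 (adjusted p = 0.0132). With both left out, Avp differed by 0.66 (adjusted p = 0.0015) and Oxt by 0.36 (adjusted p = 0.0099). Control replicate 5 also stood apart over all tested probe sets, at 37.2 on the first principal component against -14.4 to 3.69 for the other arrays. Its title number lies apart from those of the other controls too, and what that number marks is not given. On the second component dehydrated replicate 2 lay apart from its group, at -5.87 against 5.88 to 19.9 for the other dehydrated arrays, and control replicate 5 lay among the dehydrated arrays, at 12.7 against -17.9 to -9.46 for the other controls. Since these are also the pools that narrow the gap in Avp, leaving them out widens it by construction. Leaving out any of the other 8 arrays gave adjusted p from 0.0623 to 0.136 for Avp.

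The shift of Avp was larger than that of Oxt on the same arrays. The log2 signal of Avp minus that of Oxt on the same array, which no scaling factor of that array can move by much, was -0.00, -0.01, 0.14, 0.05 and -0.04 in dehydrated replicates 1 to 5. In control replicates 1 to 5 it was -0.11, -0.49, -0.30, -0.13 and -0.09. All 5 dehydrated pools lay above all 5 control pools, dehydrated replicate 2 included. The means were 0.03 ± 0.07 in dehydrated and -0.23 ± 0.17 in control pools (SD, n = 5 each), so Avp exceeded the difference of Oxt by 0.25 on the log2 scale. The exact permutation test of the group labels, two-sided, gave p = 0.0079, the smallest it can give, and 0.0397 adjusted over the 5 within-array comparisons made. The difference kept its sign in 17 of 17 alternatives (0.19 to 0.29), and the adjusted exact permutation p passed 0.05 in 12. Median centring, which cancels within an array, and the mean over probe sets, with 1 for each gene, could not change it. Adding another pseudocount to signals this bright could hardly do so. The call was lost under quantile normalization (adjusted p = 0.0794) and without any one of dehydrated replicates 1, 3, 4 and 5 (exact permutation, adjusted p = 0.0595 to 0.0794). Oxt was the brighter gene in control pools, at 4090 against 3531 for Avp, and the highest signal of any probe set on an array was 4558 to 6284. Whether signals so near the top of the range made the shift of Oxt smaller was not tested.

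**Figure D2:**
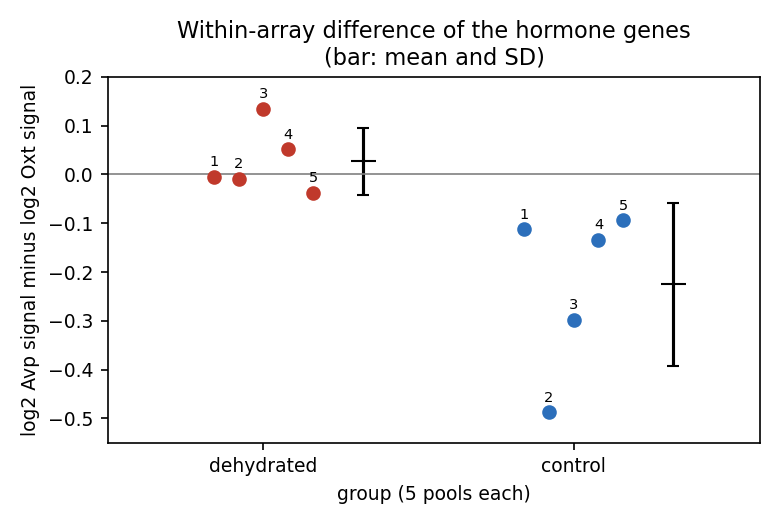
Difference of the log2 signals of Avp and Oxt within each array, for 5 dehydrated and 5 control pools, with a bar for mean and SD. Dehydrated pools run from -0.04 to 0.14 and control pools from -0.49 to -0.09, with no overlap.

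Apart from their mean shift, both genes varied together from pool to pool. After removal of the group means, their log2 signals correlated across the 10 arrays with Pearson's r = 0.84 (permutation p = 0.0035) and Spearman's rho = 0.84 (permutation p = 0.0057), from 100000 permutations of arrays within groups. Without the 2 arrays farthest from the median of Avp, dehydrated replicate 2 and control replicate 2, r was 0.86. Both genes were scaled by the same factor on each array and sit at the bright end, and the part of these in the correlation was not tested.

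The bright end as a whole was slightly higher in the dehydrated pools, and Avp had the largest difference within it. On the dehydrated arrays Avp ranked between place 3 and 11 among all probe sets, and on the control arrays between 10 and 64. Oxt ranked between 2 and 10 on dehydrated and between 5 and 15 on control arrays. The brightest probe set of an array had a signal of 4558 to 6284. Of the 50 probe sets with the highest mean signal, each at 3007 or more, 47 had a positive log2 difference and the median was 0.10, while over all tested probe sets 48.8% were positive and the median was -0.00. Avp had the largest difference of these 50, followed by Ndrg2 at 0.32 and then Oxt.

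Set against the mean log2 signal of the other 48 on the same array, Avp lay at 0.39 ± 0.12 in dehydrated and at -0.01 ± 0.23 in control pools (SD, n = 5 each). That difference of 0.40 had an exact two-sided permutation p of 0.0159 (0.0397 adjusted over 5). The adjusted value passed 0.05 in 8 of 17 alternatives and reached 0.0794 under quantile normalization. The call was lost on leaving out any one of dehydrated replicates 1, 3, 4 and 5 or of control replicates 1 to 4. Median centring and the mean over probe sets are among the 8 and could not change this comparison either. Oxt lay at 0.36 ± 0.12 in dehydrated and 0.21 ± 0.08 in control pools, a difference of 0.15 with an exact permutation p of 0.0476 (0.0794 adjusted). It passed 0.05 after adjustment without dehydrated replicate 2 and with that array and control replicate 5 both left out. Avp in 4 of 5 dehydrated pools, and Oxt in 3 of 5, was above every control on this scale. Under quantile normalization, which gives all arrays the same distribution, the log2 differences were 0.34 for Avp (limma, adjusted p = 0.126) and 0.09 for Oxt (adjusted p = 0.424).

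**Figure D3:**
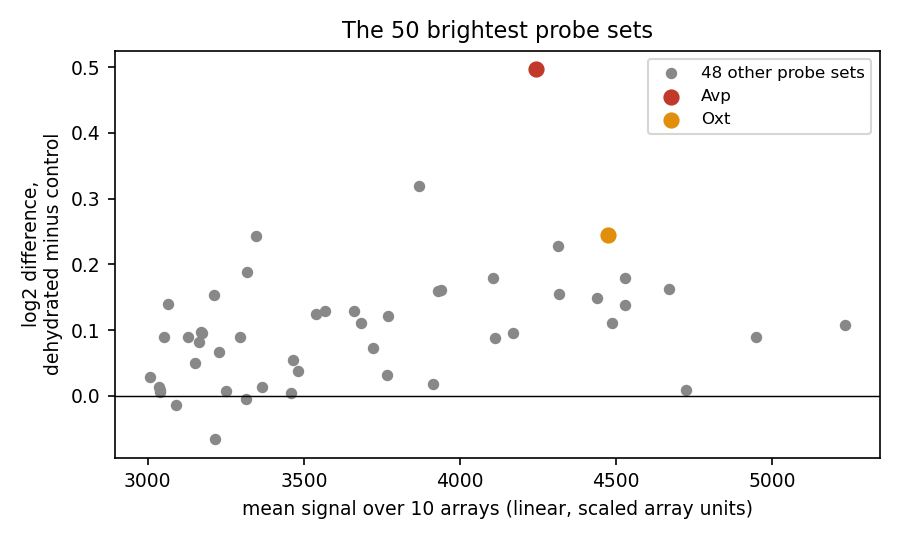
Log2 difference, dehydrated minus control, against mean signal over 10 arrays for the 50 brightest probe sets. Avp at 0.50 lies above all others and Oxt at 0.24 among the highest, in a set whose median is 0.10.

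Transcription factors of the neurons' lineage gave no firm scale for the hormones. Of 4 transcription factors that specify neuroendocrine neurons of this nucleus, Sim1 and Arnt2 were above the filter on mean signal (24.1), while Otp and Pou3f2 (mean 0.67) were below it. Otp had dim signals of 18.8, 9.3, 14.3, 14.6 and 14.2 in dehydrated pools and 6.6, 5.9, 7.0, 1.1 and 7.7 in control pools. Every dehydrated pool was above every control for this marker of the same neurons. The share of 3.36% without overlap was counted above the filter and so does not cover Otp. Its mean of 9.95 was near the median of 10.2 of the probe sets of other tissues described below. The part of Otp in the hormone differences was not tested. Avp minus the mean log2 signal of Sim1 and Arnt2 was 4.56 ± 0.30 in dehydrated and 4.27 ± 0.28 in control pools (exact permutation p = 0.167, n = 5 each, 0.208 adjusted over 5, and 0.0397 adjusted without dehydrated replicate 2). For Oxt the values were 4.53 ± 0.29 in dehydrated and 4.50 ± 0.27 in control pools (exact permutation p = 0.833). Sim1 itself had 79.2 ± 16.5 in dehydrated and 62.1 ± 15.4 in control pools (limma, adjusted p = 0.414). Arnt2 was much brighter than Sim1, with means of 518 and 70.6 over all arrays. Whether Arnt2 stands for these neurons alone was not tested.

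By the rule of highest correlation of the deviations from group means, over 10 arrays and 10467 other genes, the genes most like Avp were Iba57 (r = 0.96), Scrn1 (0.93), Ccdc28a (0.92) and Tpd52l2 (0.91). Oxt came at place 35 in that order. Those most like Oxt were the glycolytic enzyme gene Aldoa (r = 0.96), the mitochondrial phosphate carrier gene Slc25a3 (0.93), the protease gene Ctsc (0.93) and the sodium pump subunit gene Atp1b1 (0.93), with Avp at place 67. Aldoa, Slc25a3 and Atp1b1 had mean signals of 3538, 2145 and 2891, so 3 of these 4 were bright themselves. The dimmest of the 8, Iba57 and Ctsc, had mean signals of 38.6 and 28.2, not far above the filter (24.1). None of the 8 genes passed in limma, where their log2 differences ran from -0.12 for Tpd52l2 to 0.19 for Iba57. These are the highest of 10467 correlations on only 10 arrays. Whether any exceeds what chance gives among so many was not tested.

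The receptors gave dim signals in both groups. All 5 receptor probe sets lay below the filter and so had no test in the main fit. From the fit to all 31042 probe sets, in which 0.206% passed (64), none of the 5 receptor probe sets did (0 with an unadjusted p under 0.05). As a yardstick for dim probe sets, 36 probe sets of 27 genes of liver, pancreas, testis, muscle, skin, lung, breast and kidney had a median mean signal of 10.2 and quartiles of 3.66 and 16.0, with 29 of the 36 below the filter. The set is not dim throughout, since the muscle gene Myh1 in it had a mean signal of 1659. No detection calls were used here, and a dim probe set does not show that a transcript is absent.

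Avpr1a (1369664_at), the V1a receptor, which is known in brain for its part in social behaviour, was the brightest of the 5. Its signals were 13.5, 7.5, 16.6, 22.0 and 13.0 in the dehydrated pools and 18.2, 16.6, 21.4, 17.4 and 19.5 in the control pools. The groups overlapped, and the dehydrated pools spread more widely on both sides. The log2 difference was -0.34 ± 0.23, with a 95% interval of -0.82 to 0.14 (limma without a filter, adjusted p = 0.626). Its mean over all arrays, 16.6, was exceeded by 8 of the 36 yardstick probe sets.

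Avpr1b, the V1b receptor of pituitary corticotrophs, had signals of 19.0, 7.0, 12.9, 10.1 and 15.1 in dehydrated pools on probe set 1369241_at. In control pools it had 18.7, 15.8, 8.1, 14.0 and 22.6. The groups covered nearly the same range, with a log2 difference of -0.24 ± 0.27 (95% interval -0.81 to 0.33, limma without a filter, adjusted p = 0.795). On 1369240_a_at all 10 signals lay between 0.8 and 2.6. Dehydrated replicate 1, the pool with the highest Avpr1b signal of its group, also had the pituitary hormone transcripts Prl at 210.2 and Gh1 at 389.4. The other 9 pools had 0.7 to 7.6 for Prl and 3.0 to 28.4 for Gh1. Cga was also highest in dehydrated replicate 1, at 148.8. Pomc had 1.0 to 11.3 in dehydrated and 0.9 to 2.1 in control pools. Tshb had 10.7 to 41.9 in dehydrated and 9.3 to 18.3 in control pools. Lhb had 36.3 to 54.2 in dehydrated and 41.3 to 53.6 in control pools. The highest Avpr1b signal of all, 22.6, was in control replicate 5, with Prl at 1.0 and Gh1 at 17.3. Any part of pituitary tissue in the Avpr1b signal was not tested. Without dehydrated replicate 1 the log2 difference was 0.48 for Avp (limma, adjusted p = 0.123) and 0.22 for Oxt (adjusted p = 0.347).

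Avpr2, the V2 receptor of the renal collecting duct, was read on 2 probe sets. On 1369873_at it had 3.4, 2.3, 14.6, 15.6 and 8.5 in dehydrated pools and 9.4, 9.4, 7.4, 5.7 and 10.5 in control pools. Control signals fell inside the wider range of the dehydrated ones, and the log2 difference was -0.09 ± 0.32 (95% interval -0.79 to 0.60, limma without a filter, adjusted p = 0.946). On 1371265_at the signals were 12.6, 13.0, 14.7, 15.8 and 18.6 in dehydrated pools and 8.5, 8.0, 12.4, 23.8 and 14.6 in control pools. Here the control pools had the wider range, and the difference was 0.18 ± 0.25 (95% interval -0.35 to 0.71, limma without a filter, adjusted p = 0.838), so the probe sets differed in sign.

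Oxtr (1387710_at), the oxytocin receptor, was at the bottom of the range. Its signals were 1.4, 1.8, 0.7, 0.7 and 2.2 in dehydrated pools and 1.7, 1.3, 1.6, 0.9 and 0.9 in control pools. Of the 36 yardstick probe sets, 34 were brighter. The log2 difference of 0.02 ± 0.16 (95% interval -0.34 to 0.37, limma without a filter, adjusted p = 0.982) understates any change at such levels, where the pseudocount outweighs the signal. The intervals of all 5 receptor probe sets include 0. Those of Avpr1a, Avpr1b and Avpr2 also include a difference as large as that of Avp in one direction or the other, and so do not show that these receptors were equal in both groups.

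**Figure D4:**
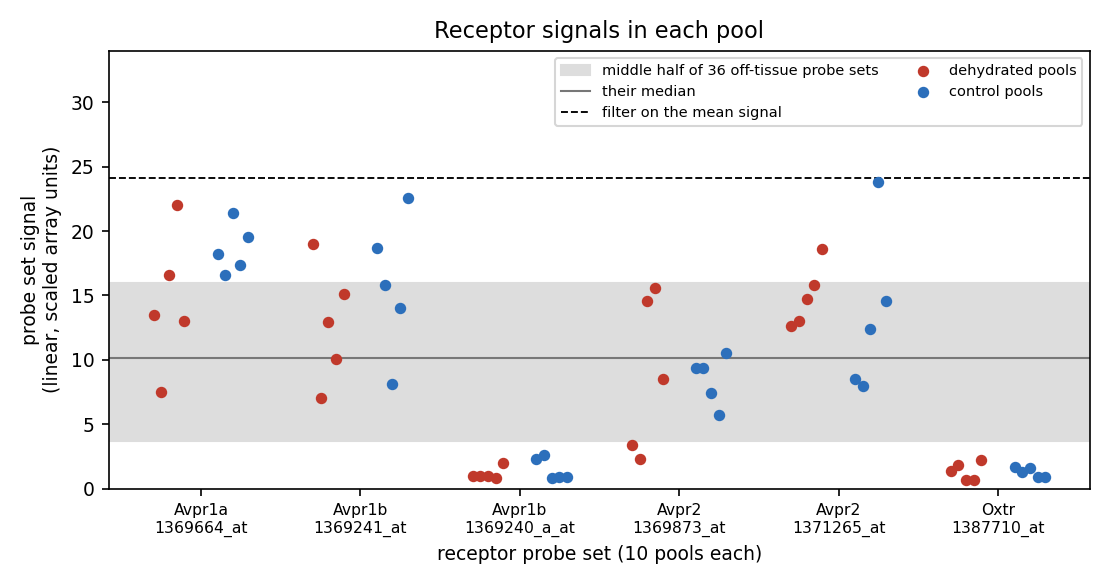
Probe set signal (linear, scaled array units) of the receptor genes in 5 dehydrated and 5 control pools. The band covers the quartiles, 3.66 to 16.0, of 36 off-tissue probe sets and the dashed line is the filter at 24.1, which no receptor signal reaches.

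Genes that process the hormones, regulate their transcription, are stored with them or carry their receptors' signals were counted next. Across 6 lists with 78 genes, 57 had a tested probe set with 1 symbol. Of these, 4 rose and 0 fell (7.02%, against 0.397% of all tested probe sets that rose), 14 had an unadjusted p under 0.05 (24.6%, against 12.7%), 37 of 57 were positive (against 48.8% of all tested probe sets) and the median log2 difference was 0.04. The 4 were Pam, Creb3l1, Vgf and Pdyn, and the lists were drawn up with earlier results on these arrays known. List shares rest on the brightest probe set of each gene and the others on all tested probe sets, so the sets are not alike. Of the 50 brightest probe sets on the arrays, 47 were positive.

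Of 7 genes of precursor processing and peptide turnover all were positive and 1 rose, with a median of 0.04. It was Pam, the enzyme that amidates the carboxyl end of both hormones, at 1331 ± 52.9 in dehydrated and 1095 ± 70.1 in control pools (log2 0.28 ± 0.06, limma, adjusted p = 0.0313). All 5 dehydrated pools, from 1239 to 1374, lay above the controls, from 983 to 1175. The Pam call was lost in 9 of 21 alternatives, among them the removal of any 1 of 6 arrays, with adjusted p up to 0.155. The convertase gene Furin differed by 0.23 ± 0.13 (adjusted p = 0.474).

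Of 11 tested factors of the lineage or of hormone gene transcription 1 rose and 0 fell, with a median of 0.09. Creb3l1, an endoplasmic reticulum-anchored factor known to activate the rat Avp promoter, had signals of 60.6 ± 7.61 in dehydrated and 33.5 ± 6.33 in control pools. Its log2 difference was 0.80 ± 0.14 (limma, adjusted p = 0.0159, and 0.0535 without dehydrated replicate 3). Nr2f2, a nuclear receptor, came next by p at -0.26 ± 0.10 (adjusted p = 0.316). Of 10 peptides known from magnocellular neurons or their neighbours, 2 rose, 8 did not pass and the median was 0.11. Pdyn, the precursor of dynorphin, which vasopressin neurons store with their hormone, had 740.3 ± 62.4 in dehydrated and 423 ± 69.3 in control pools (log2 0.81 ± 0.10, limma, adjusted p = 0.00057). Vgf, a secreted granule protein gene, had 972 ± 54.5 in dehydrated and 631 ± 44.4 in control pools (log2 0.62 ± 0.06, limma, adjusted p = 6.2e-05). Both calls held in all 21 alternatives.

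Receptor signalling genes showed no call in limma. Among 10 tested genes of the Gq pathway, which V1a, V1b and oxytocin receptors use, 0 passed, 2 had an unadjusted p under 0.05 and the median was -0.02. The 2 were the protein kinase C gene Prkcb (log2 -0.21 ± 0.08, adjusted p = 0.303) and the phospholipase gene Plcb3 (-0.81 ± 0.36, adjusted p = 0.368). Among 13 genes of the cyclic AMP pathway used by the V2 receptor, 0 passed, 4 had an unadjusted p under 0.05 and the median was 0.01. The smallest p were those of the adenylyl cyclase gene Adcy8 (-0.41 ± 0.11, adjusted p = 0.103) and the protein kinase A subunit gene Prkar1a (0.17 ± 0.06, adjusted p = 0.224). Of 6 genes of receptor desensitisation 0 passed, 1 had an unadjusted p under 0.05 and the median was -0.03. It was Rgs4, which shortens Gq signals, at 0.40 ± 0.10 (adjusted p = 0.0998), followed by the arrestin gene Arrb2 at -0.17 ± 0.10 (adjusted p = 0.488).

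**Figure D5:**
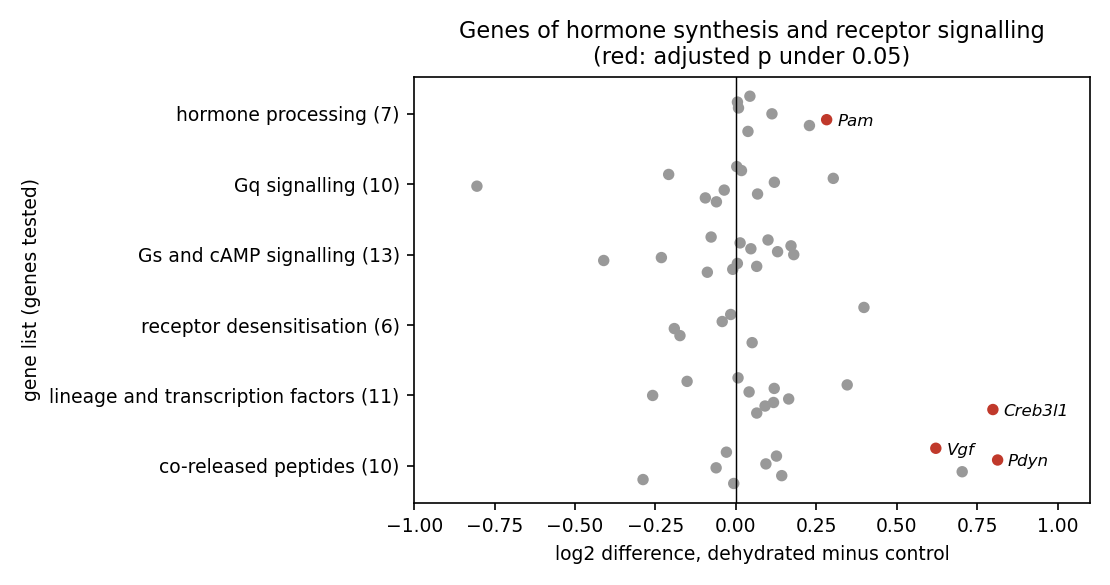
Log2 difference, dehydrated minus control, of the 57 tested genes in 6 lists, 1 point per gene, with genes past an adjusted p of 0.05 in red and named. Pam, Creb3l1, Vgf and Pdyn passed, from 0.28 to 0.81.

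Genes beside the hormone pair on the chromosome did not move as a block. With 3 tested genes taken on each side, Mrps26, a mitochondrial ribosomal protein gene next to Oxt, rose, and the other 5 did not pass. Mrps26 had signals of 738, 627, 667, 696 and 638 in dehydrated pools and 498, 433, 457, 518 and 580 in control pools, with every dehydrated pool above every control. The log2 difference was 0.44 ± 0.08 (limma, adjusted p = 0.0135, but 0.0503 without dehydrated replicate 4 and 0.0890 without the variance trend). The gene beyond it, Ptpra, differed by -0.01 ± 0.10 (adjusted p = 0.984), and Ubox5, next to Avp, by 0.35 ± 0.16 (adjusted p = 0.387). Mrps26 was looked at for its position, after the values were available.

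Some markers of other tissue also differed between the groups, with calls for Ermn and Hbb only. All 8 tested oligodendrocyte markers were lower in dehydrated pools (median log2 -0.29), Ermn with a call (-0.63 ± 0.12, limma, adjusted p = 0.0255, up to 0.0942 in 21 alternatives, of which 16 passed), and their summed signal was 6761 to 6980 in dehydrated against 7269 to 8764 in control pools. The lateral hypothalamic peptide gene Hcrt had 661 ± 377 in dehydrated and 1586 ± 875 in control pools (adjusted p = 0.233), while Pmch, the other marker of that area, had 3958 ± 794 in dehydrated and 3867 ± 462 in control pools (adjusted p = 0.962). Astrocyte sums were 7577 to 8673 and microglial sums 511 to 640 in dehydrated pools, against 8455 to 9416 and 593 to 663 in control pools. Both sums overlapped between the groups and were not tested, and no gene of either list passed. Of the tested genes, 5 of 6 astrocyte and 3 of 3 microglial markers were lower in dehydrated pools. Gfap (-0.38 ± 0.09, limma, adjusted p = 0.0553) and Aif1 (-0.42 ± 0.11, adjusted p = 0.0880) came nearest to a call. Red cell sums were 304 to 569 in dehydrated and 562 to 769 in control pools, and the haemoglobin gene Hbb fell (-0.67 ± 0.13, limma, adjusted p = 0.0305, up to 0.126 in 21 alternatives, of which 13 passed). Markers of the suprachiasmatic nucleus, which also makes vasopressin, summed to 134 to 191 in dehydrated and 167 to 232 in control pools, and its peptide gene Vip was below the filter at 11.4. No marker was listed at 0 on all arrays. The part of these marker differences in those of Avp and Oxt was not tested. Crh and Trh, parvocellular genes of the paraventricular nucleus, did not pass. Crh had 319.5 ± 89.7 in dehydrated and 282 ± 94.3 in control pools, and Trh 651 ± 44.7 in dehydrated and 615 ± 56.5 in control pools. Of the other markers of the nucleus, Sim1 had a mean of 70.6 over all arrays and Otp 9.95. Lateral hypothalamic Pmch (3912) and Hcrt (1124) were brighter over all arrays than Crh (301) and Trh (633). How much neighbouring tissue the pools held was not tested.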

How the data were processed

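The authors deposited a linear intensity for every probe set on every array. GCOS 1.2 is the tool the submitters' processing notes name. How it corrected background and summarised probes is not given in the sources used here, and detection calls were not used. The mean after trimming 2% at each end was 99.7 to 99.8 on all arrays, so each array had been scaled. Signal sums were 4026070 to 4155820 and medians 36.4 to 39.1. Depth does not apply to arrays, and their number limits the precision. Of 31099 rows, 57 control probe sets were left out.

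Gene names came from the platform table, updated through Entrez identifiers. Groups came from the source names, and replicates were numbered in accession order and pair nothing. Labels call the pools separate groups of animals. Values were taken as log2(signal + 3.72), the pseudocount being 0.1 of the median array median. Probe sets with a mean signal at or above the 40th percentile (24.1) were compared with lmFit and eBayes with trend in limma 3.58.1, run in R 4.3.3. P-values were two-sided and adjusted by Benjamini-Hochberg over the 18629 that passed this filter. Members under the filter come from the same fit without it. Within-array differences were tested by exact permutation. The brightest probe set stood for a listed gene. Named list genes were those past the threshold and the 2 smallest p of each list. Members and lists were chosen with earlier results of these data known. Promoter sequences are RefSeq's (GRCr8), and protein sequences were not used here.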

Additional observations from a re-analysis of the deposited data

How the results depend on the processing

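Settings were median centring, quantile normalization, pseudocounts of 0, 14.9 and 64, no filter, a filter at the 60th percentile, no variance trend, robust variance, array weights, the mean over a gene's probe sets and each array left out. Leaving out dehydrated replicate 2 and control replicate 5 together, the comparison with the 48 other brightest probe sets and all settings for Mrps26 and Hbb were chosen after seeing the data. No paired analysis was possible because replicate numbers follow accession order. Median centring cancels in every within-array difference, and the mean over a gene's probe sets left these differences unchanged. Counts of alternatives below include such settings.

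The count of 108 changed probe sets was 64 without a filter, 45 without the variance trend, 201 with array weights, 46 to 148 with 1 array left out, and 289 with both arrays left out. The 4 changed list genes were 2 to 5 with 1 array left out. The filters, the variance trend and robust variance cannot change a log2 difference, only its p-value. Avp kept its sign in all 21 alternatives (0.34 to 0.66), these settings included, and passed in 7. The 7 were a pseudocount of 14.9 (0.496, adjusted p = 0.0467), a pseudocount of 64 (0.490, 0.0443), the stricter filter (0.497, 0.0473), array weights (0.560, 0.0128), 2 single arrays left out (range over all arrays 0.425 to 0.578) and both left out (0.656). Oxt kept its sign too and passed with both left out only (0.362). Avp minus Oxt kept its sign in all 17 alternatives and its adjusted call in 12, with 0.251 under quantile normalization (adjusted exact p = 0.0794) and 0.187 to 0.285 with 1 array left out.

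Avp minus lineage factors was 0.503 with both left out (exact p = 0.0286, the smallest possible there), and 0.187 to 0.416 with 1 array left out. Oxt minus lineage factors was -0.119 under quantile normalization and -0.0473 to 0.155 with 1 array left out. Oxt minus the other brightest was 0.219 with both left out and 0.113 to 0.19 with 1 array left out. Avp minus the other brightest kept its sign in all 17 and its adjusted call in 8, with 0.352 under quantile normalization (adjusted exact p = 0.0794) and 0.319 to 0.464 with 1 array left out.

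Among receptors, Avpr1b was 0.0249 with both left out. Avpr2 on 1369873_at was 0.193 with both left out, 0.00423 at a pseudocount of 64 and -0.287 to 0.134 with 1 array left out. Oxtr was -0.00763 with array weights, -0.0439 with both left out, -0.00259 with median centring, -0.0153 at a pseudocount of 0, -0.0307 under quantile normalization and -0.0414 to 0.064 with 1 array left out. None of these receptor values passed, and the cause of each change of sign was not tested. Signals at the bright end for the hormones and at the level of off-tissue probe sets for the receptors limit what the arrays can show.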
